A study of Mus musculus with 2 samples.

Results

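Splicing factors and other nuclear RNA-binding proteins decide which exons enter an mRNA, how it is cut and polyadenylated, and whether it leaves the nucleus. The set described here holds the cold-inducible proteins Cirbp and Rbm3, and the SR and SR-related proteins, together called SR proteins below. The latter are named Sfrs in the deposited table, and most of them Srsf today. Also in the set are the heterogeneous nuclear ribonucleoproteins (hnRNPs) and the numbered RNA-binding motif (Rbm) genes. Members were taken by name: Cirbp, any symbol that starts with Rbm and a digit, Sfrs or Srsf with a number, and any symbol that starts with Hnrn. This gave 70 of the 24229 rows of the deposited table, namely 2 cold-inducible genes, 15 SR or SR-related genes, 18 hnRNPs and 35 other Rbm rows. Rbm15b takes up 2 of the rows.

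The tissue sequenced was the suprachiasmatic nucleus (SCN), where the mammalian circadian pacemaker resides in the hypothalamus. The mice of both groups were wild-type C57BL/6 at postnatal day 68, kept first in constant darkness for 7 days. One group was then entrained to a short light-dark cycle (ST) and the other to a normal one (NT), with 8 mice in each, and wheel running in darkness was recorded after 4 weeks. Sampling at circadian time 4 h followed 5 days of darkness, with the SCN cut from slices of 250 µm and its polyadenylated RNA taken to sequencing. Each group is 1 library, so every difference below is between these libraries. The sources used here state neither the cycle lengths nor how many mice each library pools.

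Depth was 19476800 counts for ST and 24790727 for NT. All 15 SCN neuron markers were measured, with summed normalised counts of 72412 in ST and 72470.4 in NT. Of these, 7 were higher and 8 lower in ST. Counting intervals of the ratio lay above 1 for 4 (26.7%, against 7.79% of all measured genes) and below 1 for 4 (26.7%, against 10.2%). These markers were counted more deeply, with a median mean normalised count of 2247 against 621 for all measured genes. The highest per length, picked after the values were seen, was Avp, which shares reads, at 656 RPKM in ST and 563 RPKM in NT (RPKM divides a count by gene length and library total). Summed normalised counts of 12 oligodendrocyte markers were 113707 in ST and 141222 in NT. Those of 10 endothelial and mural markers were 5818 in ST and 7395 in NT, those of 10 microglial markers 6788 in ST and 7863 in NT, and those of 6 meningeal markers 1378 in ST and 2530 in NT. Astrocyte markers (9) summed to 100005 in ST and 103910 in NT, and 5 ependymal markers to 4126 in ST and 4157 in NT. Intervals lay below 1 for 12 of 12 oligodendrocyte, 9 of 10 endothelial and mural, 7 of 10 microglial and 6 of 6 meningeal markers. They did so for 7 of 9 astrocyte and 1 of 5 ependymal markers, against 10.2% of all measured genes. Outside the SCN list, only 1 interval, of an astrocyte marker, lay above 1 (7.79% of all measured genes). Oligodendrocyte and astrocyte markers had median mean normalised counts of 3871 and 7861, against 621 for all measured genes. No marker of these lists was at 0 in either library. In whole tissue, fewer cells of a type and less RNA per cell cannot be told apart. The splicing factors are transcribed in neurons and glia alike, and the part of these marker differences in the ratios below was not tested.

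As background, Cirbp and Rbm3 are small glycine-rich proteins with a single RNA-recognition domain, whose transcripts accumulate in mild cold and decline with warmth. Daily body temperature cycles drive Cirbp rhythms in mouse tissues, and Cirbp and Rbm3 influence poly(A) site choice, including that of circadian transcripts. SR proteins mostly promote exon inclusion through arginine-serine tails that kinases phosphorylate, while many hnRNPs oppose them and bind silencer elements. Many members regulate their own transcripts by splicing in exons that trigger decay, which a count per gene does not resolve.

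Of the 70 members, 67 had a mean normalised count of at least 50 and are called measured. None was 2-fold apart: 0 of 67 were at least 2-fold higher in ST, against 0.0209% of the 14343 measured genes, and 0 were at least 2-fold lower, against 0.23%. Even a limit of 1.2-fold was passed by 1 member on the higher side (3.35% of all measured genes) and 2 on the lower side (6.11%). The median log2 ratio of ST to NT was 0.003 over the members and -0.002 over all measured genes. The members' ratios had an interquartile range of 0.12 on the log2 scale and an SD of 0.12 across genes, against 0.15 and 0.18 for all measured genes, but members were also counted more deeply, with a median mean normalised count of 1259 against 621. Intervals lay above 1 for 7 of 67 members (10.4%), against 7.79% of all measured genes, and below 1 for 6 (8.96%), against 10.2%, shares near those of all genes. Within 1.2-fold were 64 of 67 members (95.5%) and 90.5% of all measured genes. Summed over the measured members, normalised counts were 143214 in ST and 143409 in NT, a ratio of 0.999 with a 95% interval of 0.991 to 1.01. Summed over all measured genes, the ratio was 0.992 (0.991 to 0.992). These intervals, like all below, cover counting error only.

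**Figure D1:**
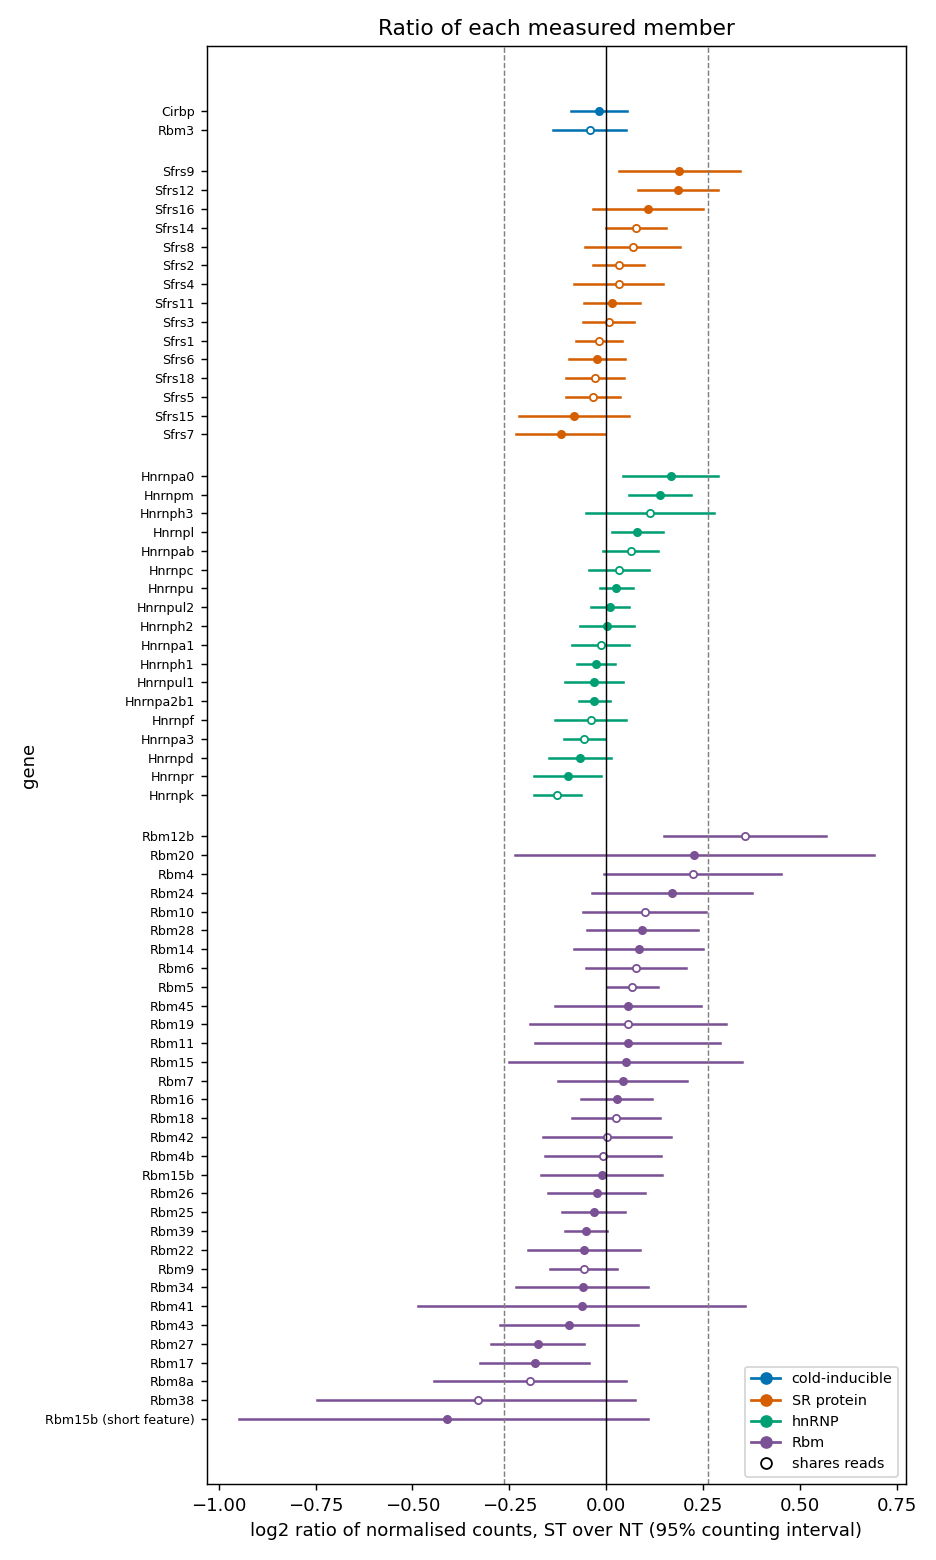
Log2 ratio of normalised counts (ST over NT, x axis) for each of the 67 measured members (rows), by role; points are ratios, bars 95% counting intervals, open points genes that share reads, dashed lines 1.2-fold. The bars of 54 members cross 0, and only Rbm12b, Rbm38 and the short Rbm15b feature lie outside the dashed lines.

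The cold-inducible pair was level. Cirbp had 3146 normalised counts in ST and 3186 in NT, at a log2 ratio of -0.02 (interval of the fold 0.939 to 1.04). Rbm3 had 1853 normalised counts in ST and 1908 in NT, a log2 ratio of -0.04 (0.910 to 1.04). Both intervals held 1, and neither reached 1.2-fold in either direction. Per length, Cirbp stood at 55.4 RPKM in ST and 55.6 RPKM in NT, and Rbm3 at 18.0 RPKM in ST and 18.4 RPKM in NT, so that Cirbp was 3.07 times as high as Rbm3 in the ST library and 3.02 times in the NT library. Cirbp ranked at percentile 91.5 of all measured genes by RPKM in ST and 91.8 in NT, and Rbm3 at 71.1 in ST and 71.9 in NT. Rbm3 shares reads with other features, as its counts are fractional, and Cirbp does not. In the mm9 coordinates of the table, Cirbp (ENSMUSG00000045193) lies on chromosome 10 from 79628730 to 79635531 and Rbm3 (ENSMUSG00000031167) on chromosome X from 7716101 to 7723006.

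Heat shock genes, some of which are induced by heat, were examined in the same libraries. Of 19 measured heat shock genes, 15 were higher and 4 lower in ST, with a median log2 ratio of 0.06. Intervals lay above 1 for 8 (42.1%, against 7.79% of all measured genes) and below 1 for 1 (5.26%, against 10.2%). That gene, named after its value was seen, was the small heat shock protein Cryab, with 1301 normalised counts in ST and 1487 in NT, at -0.19 (0.811 to 0.944). Hspa1a, the inducible HSP70 chaperone, had 228 normalised counts in ST and 138 in NT, at a log2 ratio of 0.72 (1.33 to 2.05). The near-identical Hspa1b had 83.1 in ST and 51.6 in NT, at 0.68 (1.13 to 2.31). Both share reads, though fractional counts do not name the partner, so their ratios may not be independent. The co-chaperones Dnajb1 and Bag3 were at 0.36 (1.21 to 1.36) and 0.25 (1.03 to 1.37). The upper bound of Cirbp, 1.04, lies below the lower bounds of Hspa1a, Hspa1b and Dnajb1, in counting error alone, but not below that of Bag3. Those 3 are the heat shock genes past 1.2-fold, picked by their values, so the contrast does not set Cirbp apart from the list. Of the 19, 16 lay within 1.2-fold and 10 intervals held 1. The list was also counted more deeply, with a median mean normalised count of 2138 against 621 for all measured genes.

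Promoter windows of RefSeq (build GRCm38.p6, 250 bases before to 50 after a start) were found for 59 of the 70 members, 80 windows in all. They were richer in GC than the 32851 windows of all genes, with a median of 63.5% against 52.7%, and held a median of 25 CpG dinucleotides against 7. An 8-base element reported to respond to mild cold in mouse Cirbp, TCCCCGCC, was searched on both strands and occurred in 5 of the 80 windows (6.25%), against 5.38% of all windows. Its 5 holders were Cirbp, Hnrnpa0, Sfrs7, Hnrnpf and Rbm19. The promoter of Rbm3 is not among the 80 windows and was not searched. The 3 windows below are shown because their genes share these letters and had log2 ratios of -0.02 (Cirbp), 0.17 (Hnrnpa0) and -0.12 (Sfrs7). Capitals mark the element, which in Hnrnpa0 reads on the opposite strand, and each sequence runs in the direction of its gene: Cirbp at chr10:80167589-80167888 on the plus strand, Hnrnpa0 at chr13:58128507-58128806 on the minus strand and Sfrs7 (Srsf7) at chr17:80207256-80207555 on the minus strand.
Cirbp: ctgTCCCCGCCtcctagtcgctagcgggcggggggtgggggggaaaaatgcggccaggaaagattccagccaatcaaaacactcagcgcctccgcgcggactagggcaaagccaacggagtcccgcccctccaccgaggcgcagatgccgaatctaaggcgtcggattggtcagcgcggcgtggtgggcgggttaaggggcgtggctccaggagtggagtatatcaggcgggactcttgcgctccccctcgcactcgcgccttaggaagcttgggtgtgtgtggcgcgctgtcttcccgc
Hnrnpa0: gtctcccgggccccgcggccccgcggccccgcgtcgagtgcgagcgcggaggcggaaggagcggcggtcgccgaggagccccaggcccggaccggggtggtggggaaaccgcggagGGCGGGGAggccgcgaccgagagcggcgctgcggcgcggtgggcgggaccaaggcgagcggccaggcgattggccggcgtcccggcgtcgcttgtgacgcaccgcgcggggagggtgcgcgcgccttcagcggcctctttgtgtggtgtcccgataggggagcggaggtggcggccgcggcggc
Sfrs7: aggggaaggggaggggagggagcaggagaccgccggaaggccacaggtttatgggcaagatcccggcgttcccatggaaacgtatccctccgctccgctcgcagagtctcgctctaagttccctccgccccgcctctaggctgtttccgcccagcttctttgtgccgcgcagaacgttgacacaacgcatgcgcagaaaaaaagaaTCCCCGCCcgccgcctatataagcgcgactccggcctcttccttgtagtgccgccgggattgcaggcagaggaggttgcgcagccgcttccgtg
The other Cirbp window holds no copy of the element. The clock's E-box CACGTG stood in 10 of the 80 windows (12.5%) and in 7.15% of all windows. Its letters and those of the 8-base element include a CpG, in which the member windows are richer. The shares were not matched for composition. The heat shock element GAANNTTC was in 6 (7.5%), against 7.86% of all windows. These are matches of letters, not sites.

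The SR proteins were likewise close to equal. The 15 measured genes had a median log2 ratio of 0.02, from -0.12 to 0.19, with 9 higher, 6 lower and 0 past 1.2-fold, and their summed normalised counts were 35061 in ST and 34750 in NT (ratio interval 0.994 to 1.02). Sfrs9 (Srsf9), a short SR protein, had 716 normalised counts in ST and 628 in NT, at 0.19 (1.02 to 1.27). Sfrs12 (Srek1), an SR-related regulator, had 1644 in ST and 1445 in NT, at 0.19 (1.06 to 1.22). Sfrs7 (Srsf7), which carries a zinc knuckle beside its RNA-binding domain, had 1208 in ST and 1310.3 in NT, at -0.12 (0.851 to 0.998). These were the only SR members whose interval left out 1, 2 above and 1 below, against 7.79% and 10.2% of all measured genes.

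Among the classical SR proteins, the splicing activator Sfrs1 (Srsf1, also known as SF2/ASF) had 4777 normalised counts in ST and 4838 in NT, at -0.02 (0.948 to 1.03). Sfrs2 (Srsf2, or SC35), a marker of nuclear speckles, had 3790.5 in ST and 3705 in NT, at 0.03 (0.977 to 1.07). Sfrs3 (Srsf3), the smallest of the family and also an mRNA export adaptor, had 3697 in ST and 3681 in NT, at 0.01 (0.959 to 1.05). Sfrs4, Sfrs5 and Sfrs6, with paired RNA-binding domains, were at 0.03, -0.03 and -0.02, and all of their intervals held 1. The 7 SR-related genes (Sfrs8, 11, 12, 14, 15, 16 and 18, today Sfswap, Srsf11, Srek1, Sugp2, Scaf4, Clasrp and Pnisr) had a median log2 ratio of 0.07, against -0.01 for the 8 classical ones. Their ratios overlapped, from -0.08 to 0.19 and from -0.12 to 0.19. Summed normalised counts gave a ratio of 1.030 (1.005 to 1.055) for the SR-related genes and 0.997 (0.978 to 1.016) for the classical ones. Over all measured genes it was 0.992 (0.991 to 0.992). Of the 15, 8 share reads, among them Sfrs1, Sfrs2 and Sfrs3.

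hnRNPs were the most abundant members and were counted most precisely. They took 53.4% of the members' summed RPKM in each library, against 20.6% in ST and 20.4% in NT for the SR proteins, 22.1% in ST and 22.3% in NT for the other Rbm genes and 3.83% in ST and 3.89% in NT for the cold-inducible pair. The highest member per length was Hnrnpa2b1, which binds RNA for transport and silences exons, at 112 RPKM in ST and 113 RPKM in NT. Hnrnpk, a poly(C)-binding hnRNP, came second at 95.3 RPKM in ST and 103 RPKM in NT. Next were Hnrnpu, a scaffold attachment protein, at 80.4 RPKM in ST and 78.3 RPKM in NT, and Hnrnpl, which binds CA repeats, at 79.9 RPKM in ST and 74.9 RPKM in NT.

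**Figure D2:**
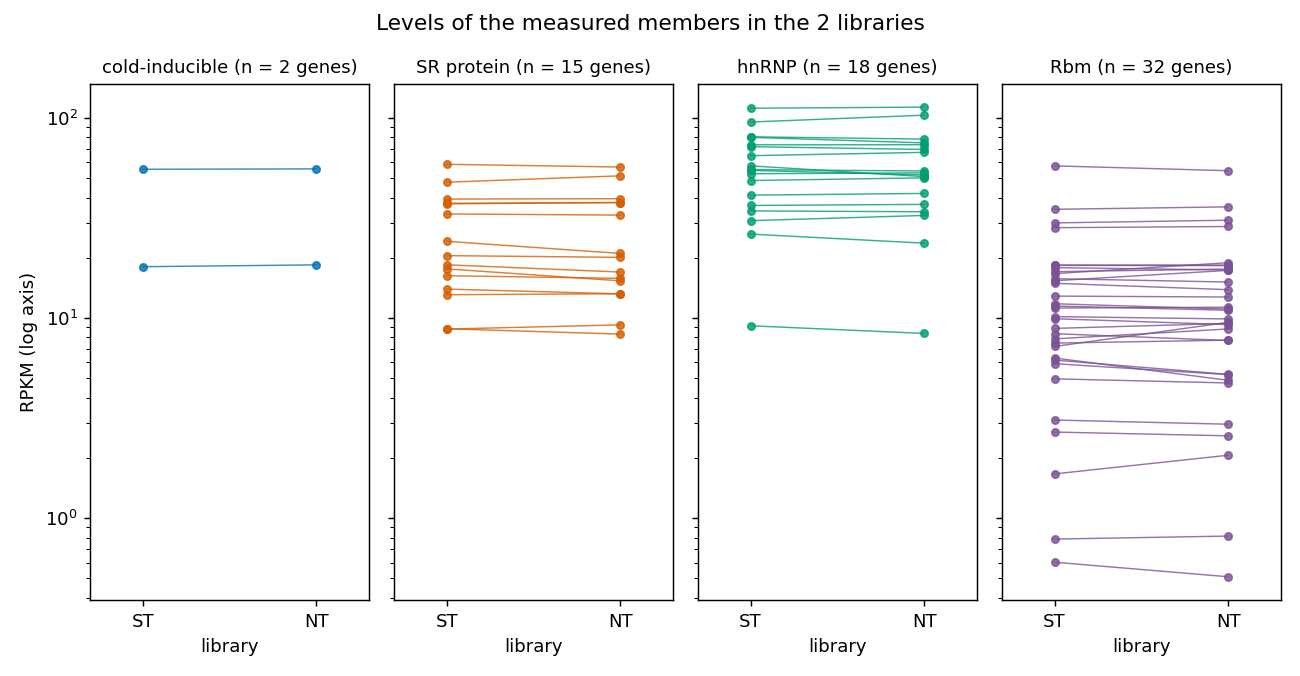
RPKM (log axis) of the 67 measured members in the ST and NT libraries (x axis), 1 line per gene, a panel per role. The lines run nearly flat, with hnRNPs up to 112 RPKM in ST and the lowest Rbm gene, Rbm20, at 0.603 RPKM in ST and 0.510 RPKM in NT.

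The order of levels was nearly the same in both libraries. By RPKM, 35 of 67 members held the same rank, 58 moved by at most 2 ranks and 9 of the top 10 were shared. The largest moves were 8 ranks for the short Rbm15b feature, 7 for Sfrs16 and Rbm8a and 6 for Hnrnpa0. Across the 67 members, which are genes and not replicates, the Pearson correlation of log2 RPKM between libraries was 0.997. Above percentile 75 of all measured genes by RPKM were 29 members in ST and 29 in NT.

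Small differences among hnRNPs went both ways. Of 18, 9 were higher and 9 lower in ST, with a median of -0.01, a range of -0.13 to 0.17 and 0 past 1.2-fold. Hnrnpa0, an intronless member of the A/B group, had 1155 normalised counts in ST and 1029 in NT, at a log2 ratio of 0.17 (1.03 to 1.22). Hnrnpm, a splicing regulator that binds GU-rich RNA, had 2692 in ST and 2445 in NT, at 0.14 (1.04 to 1.16). Hnrnpl had 3792 in ST and 3585 in NT, at 0.08 (1.01 to 1.11).

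On the lower side, Hnrnpk had 4221 normalised counts in ST and 4606 in NT, a log2 ratio of -0.13 (0.879 to 0.956). Hnrnpr, which resembles the synaptic RNA-binding protein Syncrip, had 2108 in ST and 2257 in NT, at -0.10 (0.879 to 0.991). Hnrnpa3 had 5732 in ST and 5962 in NT, at -0.06 (0.927 to 0.997). These 6 genes were the only hnRNPs whose intervals left out 1, 3 above (16.7%, against 7.79% of all measured genes) and 3 below (16.7%, against 10.2%), and each differed by less than 1.2-fold. The hnRNPs were counted more deeply, with a median mean normalised count of 3143 against 621 for all measured genes. Of all measured genes with mean normalised counts of 2716 to 10159, 17.0% had intervals above 1 and 17.7% below. With counts of 799 to 2699, the shares were 8.97% and 10.4%. Hnrnpk and Hnrnpa3 share reads. Hnrnpa0 and Hnrnpk, the genes at either end of the range, lie 263638 bp apart on chromosome 13 of mm9 (58228757 to 58229674 and 58493312 to 58503877).

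Other hnRNPs had intervals that held 1 despite high counts. Hnrnpa2b1 had 10051 normalised counts in ST and 10268 in NT, at -0.03 (0.952 to 1.01), and Hnrnpu 9117 in ST and 8953 in NT, at 0.03 (0.989 to 1.05). Hnrnpa1, the best-known antagonist of Sfrs1, had 3024 in ST and 3053 in NT, at -0.01 (0.941 to 1.04). Hnrnpc, a nuclear-retained hnRNP that binds poly(U), was at 0.03, Hnrnpd (AUF1), which acts on AU-rich decay elements, at -0.07, and Hnrnph1 and Hnrnph2, which bind G runs, at -0.03 and 0.00. Hnrnpab, Hnrnph3, Hnrnpf, Hnrnpul1 and Hnrnpul2 lay between -0.04 and 0.11, with intervals that held 1. The hnRNP sum was 72635 in ST and 72948 in NT, a ratio interval of 0.985 to 1.01.

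The remaining Rbm genes spread most among the member roles. Of 35 rows, 32 were measured, with a median log2 ratio of 0.01, an SD across genes of 0.15 and a range of -0.41 to 0.36. All measured genes had an SD of 0.18 at a median mean normalised count of 621. The Rbm genes were counted less deeply than other roles, with a median of 605 against 2716 for SR proteins and 3143 for hnRNPs. The members past 1.2-fold were all Rbm rows. Rbm12b, a gene whose function is little known, had 431 normalised counts in ST and 336 in NT, at 0.36 (1.11 to 1.48), and it shares reads. In the authors' deposited table it is the only member with an unadjusted p under 0.05 (0.0411), which 2.16% of all rows have. At an adjusted p of 0.05 the authors' deposited table calls 0 of the 70 members in either direction, against 0.0413% of all rows higher and 0.161% lower, and the adjusted p of every member is 1.

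Rbm38, a p53 target that regulates mRNA stability and splicing, had 93.2 normalised counts in ST and 117 in NT, at -0.33 (0.596 to 1.05), and shares reads. The short Rbm15b feature (ENSMUSG00000074102) had 56.2 in ST and 74.8 in NT, at -0.41 (0.518 to 1.08). Its 356 bases on the minus strand of chromosome 9 (mm9 106783842 to 106784198) lie inside an annotated exon of Vprbp on the plus strand, from 106782265 to 106785649. The sources used here do not say whether counting used strand, so reads of the overlapping genes cannot be told apart. The main Rbm15b row, 2437 bp further on, had 682 in ST and 687 in NT, at -0.01 (0.891 to 1.11). Intervals of Rbm38 and of the short feature held 1.

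Within the measured Rbm genes, 2 intervals lay above 1 (6.25%, against 7.79% of all measured genes) and 2 below (6.25%, against 10.2%). Besides Rbm12b, Rbm5, a tumour suppressor that regulates alternative splicing, was above, with 3837 normalised counts in ST and 3661 in NT, at 0.07 (1.001 to 1.10). Rbm17 (SPF45), a component of the spliceosome, was below, with 790 in ST and 897 in NT, at -0.18 (0.798 to 0.970). So was Rbm27, an adaptor of nuclear RNA decay, with 1068 in ST and 1208 in NT, at -0.18 (0.813 to 0.962). Rbm5 and Rbm6, which neighbour each other on chromosome 9 with 2578 bp between them, had log2 ratios of 0.07 and 0.08.

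Spliceosome components and coactivators (Rbm17, Rbm22, Rbm25, Rbm39 and Rbm42) ran from -0.18 to 0.00, with 4 of 5 lower. Their summed normalised counts were 9958 in ST and 10347 in NT, a ratio of 0.962 (0.936 to 0.989). Over all measured genes the ratio of sums was 0.992 (0.991 to 0.992). Rbm39, the most counted of these spliceosome genes, had 5290.3 normalised counts in ST and 5486 in NT, at -0.05 (0.928 to 1.002), and so weighs most in their sum. Alternative splicing regulators (Rbm4, 4b, 5, 6, 9, 10, 11, 20, 24 and 38) ran from -0.33 to 0.23, with 7 of 10 higher, and 7 of the 10 share reads. The ratio of their sums was 1.030 (1.001 to 1.060). Rbm5 alone gave 3837 of their 9663 normalised counts in ST. Rbm9 (Rbfox2), a regulator of neuronal and muscle exons, had 2153 in ST and 2239.6 in NT, at -0.06 (0.905 to 1.02). Rbm4 was at 0.22 (0.997 to 1.37) and its near copy Rbm4b at -0.01 (0.896 to 1.10), and both share reads. Rbm20, known from titin splicing in heart, was at 0.23 (0.850 to 1.61), with the lowest RPKM of the measured members.

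Other roles were as close. Rbm8a (Y14), a core protein of the exon junction complex, had 257 normalised counts in ST and 295 in NT, at -0.20 (0.735 to 1.04). Rbm15, a cofactor of the RNA m6A writer, was at 0.05 (0.840 to 1.28). Rbm7 and Rbm26, which link RNA to the nuclear exosome, were at 0.04 and -0.02. Rbm19 and Rbm28, nucleolar proteins, were at 0.06 and 0.09, and Rbm14, a paraspeckle protein, at 0.08. Of the rest, Rbm16 (Scaf8), Rbm18, Rbm34, Rbm41, Rbm43 and Rbm45 lay between -0.09 and 0.06, and the intervals of all 6 held 1.

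The 3 members below the count limit were barely detected. Rbm44 had 2 counts in ST and 0 in NT, where a count of 0 allows up to 3 counts or 0.121 RPM. Rbm46 had 4 counts in ST and 3 in NT (ratio interval 0.285 to 11.5), and Rbm47 had 3 in ST and 8 in NT (0.0809 to 1.97). Just above the limit stood the short Rbm15b feature, with a mean normalised count of 65.5, and Rbm20 with 81.2.

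Precision followed depth. Measured members were put into 3 classes by count. In the lowest class (23 genes, mean normalised count 65.5 to 788), the median absolute log2 ratio was 0.08 and the median interval half-width 0.19. In the middle class (22 genes, 799 to 2699) the values were 0.07 and 0.11, and in the highest (22 genes, 2716 to 10159) 0.03 and 0.07. All measured genes in the same ranges of counts had a median absolute log2 ratio of 0.10, 0.06 and 0.04, so the member value was the lower in the lowest and highest classes and the higher in the middle one, untested. Intervals that left out 1 numbered 2 of 23 in the lowest class, 7 of 22 in the middle class and 4 of 22 (18.2%) in the highest. Of all measured genes in the same ranges of counts, 13.2%, 19.4% and 34.8% had such an interval. The member share was thus below that of all genes in the lowest and highest classes and above it in the middle class (31.8%), with no test of these differences.

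**Figure D3:**
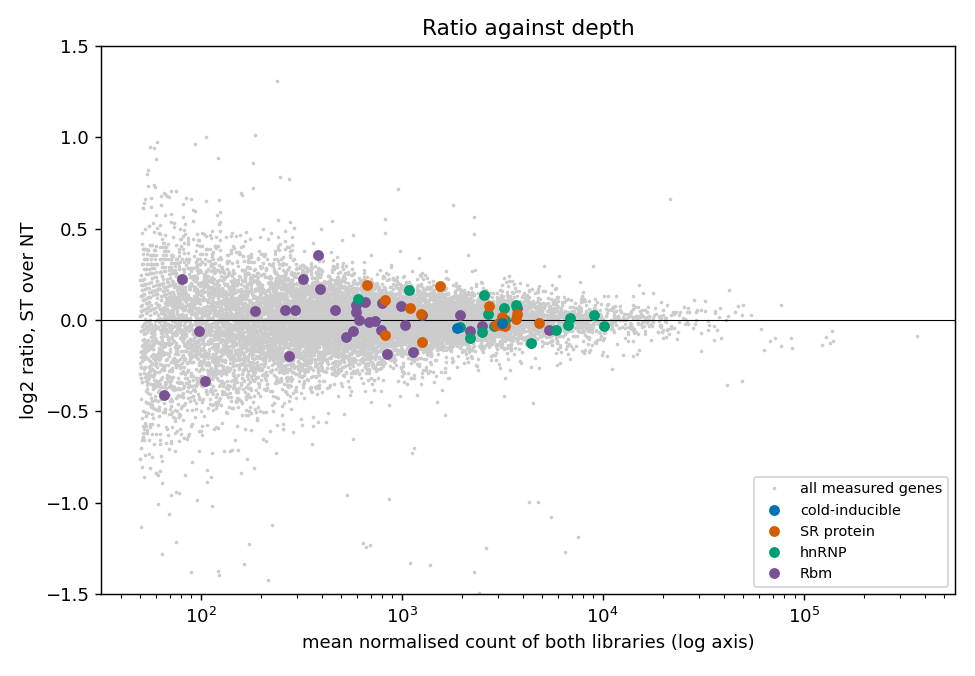
Log2 ratio (ST over NT, y axis) against the mean normalised count of both libraries (log axis) for 14343 measured genes (grey) and the members, coloured by role; 9 genes lie beyond the y axis limits of 1.5. The members narrow towards 0 with depth, from -0.41 to 0.36 in the lowest class of counts to -0.13 to 0.08 in the highest.

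Genes that act on or beside these factors were also near equal in their medians. The kinases that phosphorylate SR proteins, with related kinases and phosphatase subunits, had a median log2 ratio of 0.03 over 11 genes. Clk1 had 3355 normalised counts in ST and 3063 in NT, at 0.13 (1.04 to 1.15), and Clk4, its close relative, 1812 in ST and 1960.1 in NT, at -0.11 (0.866 to 0.986). These were the only 2 of the 11 with an interval off 1, 1 on each side (9.09% each, against 7.79% above and 10.2% below for all measured genes). Clk2 was at 0.12, Clk3 at 0.03, Srpk1 at 0.09, Srpk2 at -0.02, Srpk3 at 0.03, Prpf4b at -0.01, Dyrk1a at -0.06, Ppp1r8 at 0.06 and Ppp1r10 at -0.03.

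Core spliceosome genes had a median of 0.03, with 31 of 45 higher, 4 intervals above 1 (8.89%, against 7.79% of all measured genes) and 2 below (4.44%, against 10.2%). Their summed normalised counts gave a ratio of 1.026 (1.016 to 1.036), against 0.992 (0.991 to 0.992) over all measured genes. Their 4 largest ratios were those of Sf3b5 at 0.29 (1.06 to 1.41), Lsm2 at 0.18, Lsm3 at 0.17 and Snrpg at 0.17, all short subunits, and the intervals of the last 3 held 1. Other splicing regulators had a median of 0.01 over 43 genes, with 6 intervals above 1 (14.0%, against 7.79%) and 4 below (9.30%, against 10.2%). Their median mean normalised count was 2254, against 621 for all measured genes. Nova1, a neuronal regulator, was at -0.34 (0.609 to 1.02), Tra2a, an SR-like activator, at 0.19 (1.07 to 1.21), Mbnl2, a muscleblind protein, at -0.17 (0.821 to 0.959) and Srrm4, which drives neuronal microexons, at 0.16 (1.05 to 1.19). Cleavage and polyadenylation genes had a median of 0.01 over 21 genes, with 1 interval above 1 (4.76%, against 7.79%) and 3 below (14.3%, against 10.2%). Cpsf4 was at 0.20, Cpsf6 at 0.17, Pabpc1 at -0.16 and Cstf2t at -0.11. The 18 core clock genes had a median of -0.01, from -0.16 to 0.36, with 1 past 1.2-fold on the higher side. Their intervals lay above 1 for 4 (22.2%, against 7.79% of all measured genes) and below 1 for 3 (16.7%, against 10.2%). They were counted more deeply, with a median mean normalised count of 2884 against 621.

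**Figure D4:**
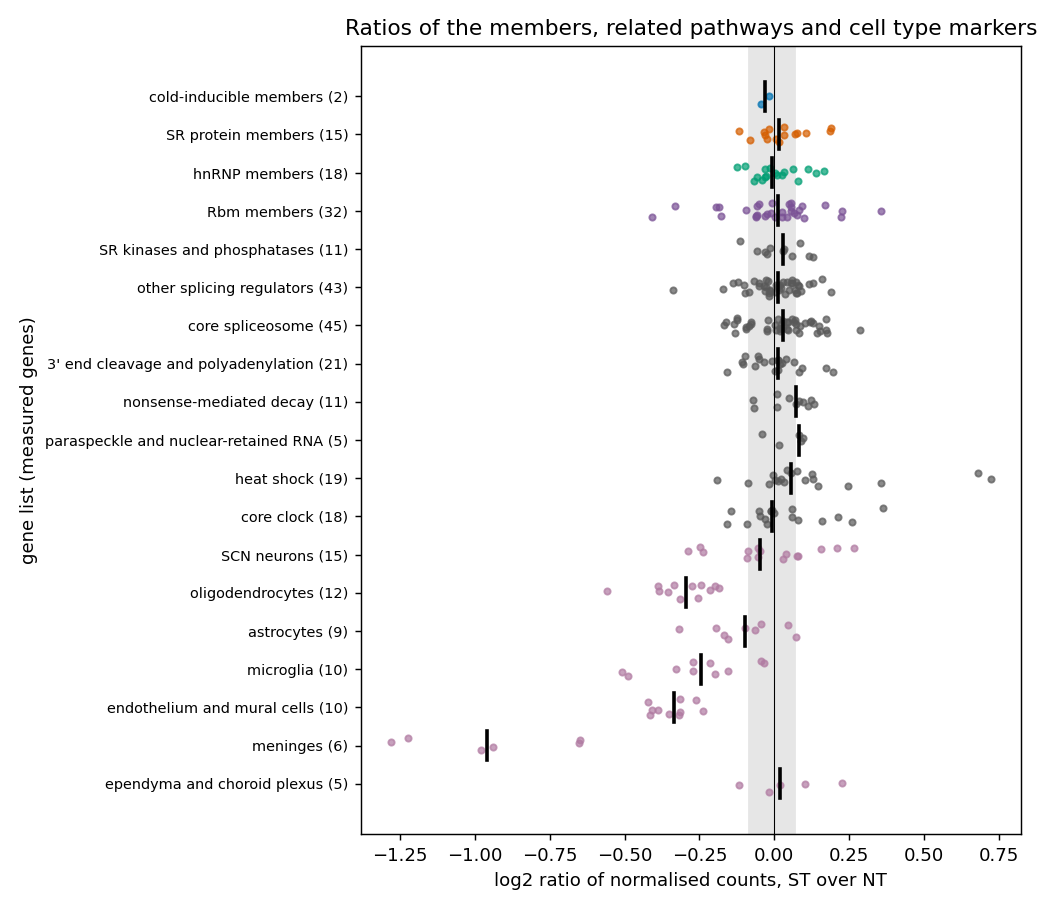
Log2 ratio (ST over NT, x axis) of every measured gene (points) in the 4 member roles, 8 related pathway lists and 7 cell type marker lists (rows, number of genes in brackets); black ticks are medians and the grey band the middle 50% of all measured genes. The member roles have medians from -0.03 to 0.02, while oligodendrocyte, endothelial, microglial and meningeal markers lie to the left, with medians of -0.30, -0.33, -0.24 and -0.96. Astrocyte, SCN neuron and ependymal markers have medians of -0.10, -0.05 and 0.02.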

How the data were processed

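SCN RNA was sequenced in 1 ST and 1 NT library. Build mm9 and the tools CASAVA 1.8.2, TopHat 1.2 and DESeq appear, with no stated role, per the submitters' processing notes. The sources used here do not state the counter. The authors deposited, per the file headers, estimated counts (RC), RPKM and RPM values, and a fold change, its log2 and p-values of ST over NT. A further 3 mean columns were not used. Counts were fractional (tolerance 1e-06) for 45.2% of genes, described as sharing reads.

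Counts were rounded and divided by median-of-ratios size factors (0.890 ST, 1.12 NT). Log2 ratios used a pseudocount of 0.5, and folds none. The count limit was a mean of 50 normalised counts. The 95% interval (exact, Clopper-Pearson) is that of the share of reads from ST, rescaled to a ratio. With 1 library per group no test was made. Size rules were 2-fold and 1.2-fold.

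Identifiers were compared with GENCODE vM1 (NCBIM37): 23161 were found, 99.6% overlapping. Members, lists and rules were chosen with earlier results of these data known. All SR, hnRNP, cold-inducible and SR kinase genes could be named, as could Rbm genes by size, depth or interval and up to 4 genes of other lists. Calculations used Python 3.11.15, scipy 1.17.1 and, for TMM factors, edgeR 4.0.16, and were tested on simulated data. Alternatives covered scaling, filter, pseudocount, whole counts, RPKM, size rule and list summary.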

Additional observations from a re-analysis of the deposited data

How the results depend on the processing

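No paired analysis was possible because ST and NT have a single library each, so nothing could be left out either. Of 111 counts and medians recomputed under the alternatives, 103 stayed within the limits (1.5 times for counts, the median counting half-width for medians). That half-width is of single genes, from 0.072 (hnRNPs) to 0.165 (other Rbm genes), so medians could hardly pass it. The number of members at least 1.2-fold higher in ST was 3 with no filter, 0 with whole counts only and 0 at 1.5-fold. The number at least 1.2-fold lower was 0 with a filter of 200 counts, 0 at 1.5-fold, 1 with whole counts only and 1 with both Rbm15b rows summed, an alternative chosen after seeing the data. With no filter, 1 member was at least 2-fold higher, Rbm44, on 2 counts in ST and 0 in NT. These settings change the numbers by construction, through the genes they admit or the limit they set. All 503 log2 ratios of single members stayed within their counting interval, which was nearly fixed in advance. Filters and whole counts leave the ratio of a gene as it is, and TMM scaling shifted it by 0.000135 (log2). The member median ran from -0.011 to 0.015, so its sign depends on the setting, while the median counting half-width of a member was 0.115. Scaling by total counts shifted every ratio by 0.012 (log2) and gave 10 intervals above 1 and 4 below, against 7 and 6. Depth leaves an interval of 0.850 to 1.61 for Rbm20 and of 0.952 to 1.01 for Hnrnpa2b1.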

Other observations

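Genes of nonsense-mediated decay, which clears transcripts that carry the decay-triggering exons of SR genes, had a median log2 ratio of 0.07 over 11 measured genes. Of these, 9 were higher in ST and 2 lower, with 3 intervals above 1 (27.3%, against 7.79% of all measured genes) and 0 below (10.2% of all measured genes). The 11 were counted more deeply, with a median mean normalised count of 1874 against 621 for all measured genes. The kinase Smg1 had 4184 normalised counts in ST and 3816 in NT, at 0.13 (1.05 to 1.15), the endonuclease Smg6 was at 0.12 (1.01 to 1.17), and Eif4a3 and Casc3, of the exon junction complex, were at 0.11 (0.929 to 1.26) and 0.10 (1.01 to 1.13), and all of them share reads. Of 5 measured paraspeckle proteins and nuclear-retained RNAs, Sfpq was at 0.10 (1.02 to 1.12), Pspc1 at 0.09 (0.972 to 1.17), Meg3 at 0.08 (1.05 to 1.07) and Nono at -0.04 (0.925 to 1.02), and these also share reads.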
